A study of Zea mays with 6 samples.

Results

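Sigma factors are nuclear-encoded proteins that enter the plastid and direct its bacterial-type RNA polymerase to the promoters of plastid genes. Without a sigma factor this polymerase does not start transcription at its promoters, and in seedlings it transcribes photosynthesis genes of the plastid while proplastids of the shoot tip turn into chloroplasts. In Arabidopsis, SIG6 acts in the early seedling, SIG2 serves plastid tRNA genes, SIG3 serves psbN and SIG1 serves genes of photosystem I. The maize genes sig1, sig2A, sig2B, sig3 and sig6 belong to this family.

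These 5 genes were found as the probe sets whose single gene carried, as a symbol or synonym, the letters sig followed by a number and an optional letter. Each had 1 probe set, so the family made up 5 of the 1108 genes that the annotation names, and 5 of the 1452 probe sets with a single symbol, among 17621 on the array besides controls. All 5 probe set names lack the marks that the manufacturer gives to probe sets shared by several transcripts. In the RefSeq annotation of the B73 assembly Zm-B73-REFERENCE-NAM-5.0, sig6 (LOC542484) lies on chromosome 5, sig1 (LOC541691) on chromosome 10, sig2A (LOC541716) on chromosome 4, sig2B (LOC541717) on chromosome 1 and sig3 (LOC542081) on chromosome 6. The array names no genome build, so the assembly was used for names and gene order only.

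The study compared 3 pools of DpDf (duplicate-deficient) maize seedlings with 3 pools of wild-type siblings, each pool of 8 plants taken on day 14 and hybridised to its own Affymetrix array. All plants were of the B73 inbred background, in families that segregated for the translocation T5-6b and were grown from a selfed DpDf plant, and they were sorted by a marker linked to the chromosome 5 breakpoint. DpDf plants carry 3 copies of about 90% of the chromosome 5 short arm and 1 copy of a small region at the tip of the chromosome 6 short arm, whereas wild-type siblings carry 2 copies of both. The tissue was enriched for the shoot apical meristem and held leaf primordia, so every value comes from a mixture of cell types.

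The copy number of the family members follows from these positions. In gene order sig6 was gene 20 of 5209 on chromosome 5, and it was the outermost of the 46 short arm genes that were named and measured. It therefore lies in the segment present in 3 copies in DpDf. On chromosome 6 sig3 was gene 4564 of 4610, at the end opposite to the missing tip, and sig1, sig2A and sig2B lie on chromosomes that the translocation does not involve. These 4 genes are the 2-copy paralogs.

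The arrays were not equally alike. The highest Spearman correlation of wild type replicate 3 with another array was 0.932, while the lowest among the other 5 arrays was 0.988, and its median intensity was 415.9 against 490.9 to 506.1 on the others. Differences of the sigma factor genes, where given, are therefore shown with all 6 arrays and without that array. For other genes the setting is named with the value. Differences are given as DpDf minus wild type on the log2 scale, and their median over the 10661 probe sets tested was 0.18 with all 6 arrays and 0.02 without it. The signal at the 3' end of 5 control transcripts over that at the 5' end, a sign of RNA quality, was 1.14 to 2.20 on the log2 scale in DpDf and 0.77 to 0.91 in wild type. Its part in the differences below was not tested. Of the meristem markers kn1 read 874.1 to 1369 and lay above the 40th percentile of intensity on all 6 arrays, and lg3 and fea2 on 5 each. Of 7 leaf primordium markers, ocl1, ocl4 and yab14 lay above it on all 6 arrays and yab10 on 4, while ns1, ns2 and yab9 lay below it on all. The cytokinin response regulator gene abph1, 1 of 4 genes listed for the meristem, also lay below it on all arrays. The 1 gene listed for root, RCP1, read 351.3 to 436.9 and lay above it on all 6 arrays. Passing this bound therefore does not tell the labelled tissue from root.

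The gene present in 3 copies, sig6, was higher in all 3 DpDf pools. Its intensity was 969.8, 1014 and 1003 in DpDf replicates 1, 2 and 3. In wild type replicates 1, 2 and 3 it was 624.1, 599.9 and 392.5. The groups did not overlap, the DpDf pools lay within a narrow range, and the wild-type array that stood apart was also the lowest for this gene. On the log2 scale the DpDf level was 9.96 ± 0.03 (SD, n = 3) and the wild-type level 9.05 ± 0.37 (SD, n = 3). Among the probe sets of each array, sig6 stood at percentiles 66.4 to 67.8 in DpDf and at 48.1 to 56.0 in wild type.

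**Figure D1:**
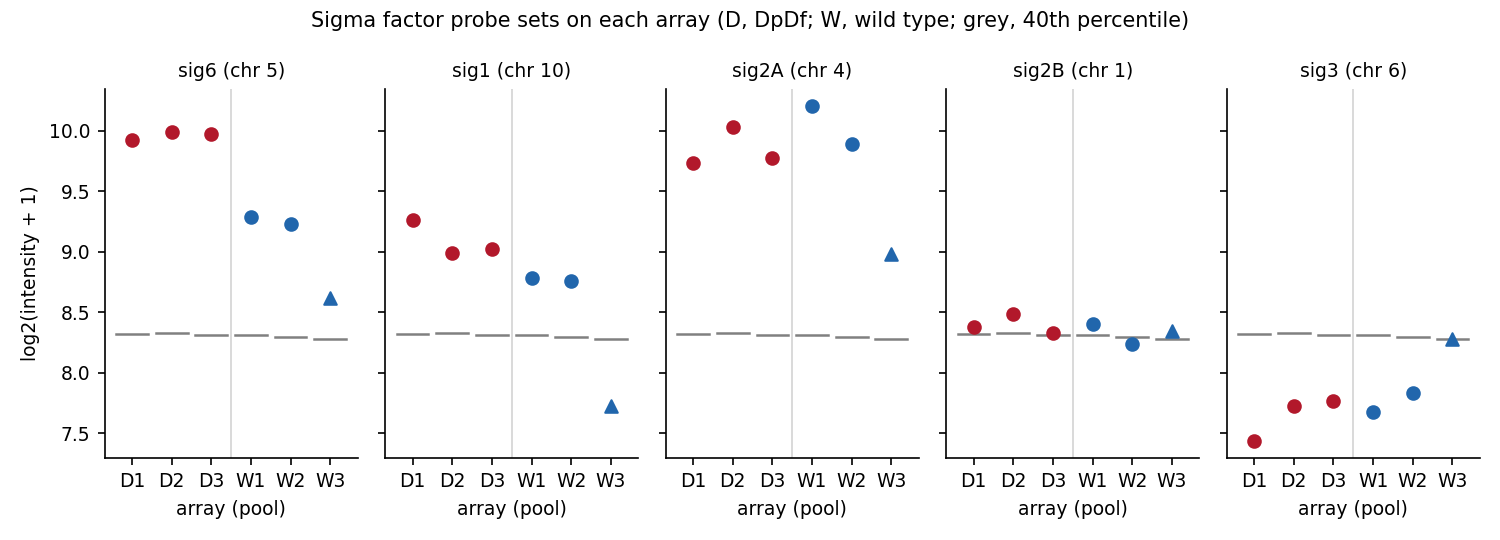
Level of each sigma factor probe set, in log2(intensity + 1), on each of the 6 arrays, with DpDf pools in red, wild-type pools in blue, wild type replicate 3 as a triangle and the array's 40th percentile as a grey dash. Levels of different genes come from different probes and are not comparable. The sig6 points of DpDf (9.92 to 9.99) lie above all wild-type points (8.62 to 9.29), and all sig3 points lie below the dash.

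Without wild type replicate 3, sig6 rose 1.63-fold in DpDf, a log2 difference of 0.70 (limma, SE 0.07, 95% interval 0.54 to 0.87, adjusted p = 0.0151). In that setting 3.07% of the probe sets tested were called higher in DpDf. With all 6 arrays the difference was 0.91 ± 0.20 (SE, limma, adjusted p = 0.302, interval 0.45 to 1.38) and did not pass, in a setting where 0.0281% of probe sets were called higher. A lack of overlap with DpDf on the higher side was found for 23.2% of probe sets with all 6 arrays, and for 25.4% without wild type replicate 3, so it is common here. The call was also lost when a further array was left out beside wild type replicate 3, namely DpDf replicate 2 (adjusted p = 0.0691), wild type replicate 1 (adjusted p = 0.216) or wild type replicate 2 (adjusted p = 0.13). With the replicate number as a block and replicate 3 of both groups left out, the limma difference was 0.70 and did not pass (adjusted p = 0.0851), whereas the same 4 arrays without the block gave adjusted p = 0.0466. In pooled tissue, more cells that express sig6 and more sig6 RNA per cell cannot be told apart. The summed intensity of 4 vascular markers was 7947 to 8493 in DpDf and 6654 to 7227 in wild type. The cellulose synthase genes cesa10, cesa11 and CesA12 carried this sum. Their log2 differences were 0.24, 0.21 and 0.30 without wild type replicate 3, and 0.26, 0.18 and 0.48 with all 6 arrays. The sucrose transporter gene sut1 lay at -0.33 and -0.42 in these settings and was lower in every DpDf pool. Lower values in DpDf with no overlap were found for 17.5% of probe sets without wild type replicate 3, and for 3.61% with all 6 arrays. The summed intensity of 5 markers of photosynthetic leaf was 26205 to 27226 in DpDf and 21231 to 26169 in wild type. Its members did not move together without wild type replicate 3. In that setting the brightest probe set of pdk1, for pyruvate phosphate dikinase, lay at 0.29, ssu1 at 0.03, rca1 at 0.02, me3 at -0.09 and pep1 at -0.28. With all 6 arrays they lay at 0.37, 0.07, 0.33, 0.05 and 0.07. None of these 9 markers passed the test (limma), and their part in the sig6 difference was not tested.

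The paralog sig1 differed in the same direction and did not pass the test. Its intensity was 612, 506.6 and 519.7 in DpDf replicates 1 to 3. In wild type it was 441, 431.9 and 211.2, and the last of these lay below the 40th percentile of its array. The groups did not overlap, with or without that array. Among all probe sets tested, 23.2% with all 6 arrays and 25.4% without that array were likewise higher in DpDf with no overlap. The log2 difference was 0.32 ± 0.10 without wild type replicate 3 (SE, limma, adjusted p = 0.148, interval 0.08 to 0.55) and 0.67 ± 0.29 with all 6 arrays (adjusted p = 0.525, interval -0.02 to 1.35).

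The 2 genes of the sig2 pair gave no difference that passed. Intensity of sig2A was 849.7, 1048 and 876.3 in DpDf and 1181, 946.7 and 505 in wild type replicates 1 to 3. The groups overlapped, and wild type held both the highest and the lowest pool. Its log2 difference was -0.20 without wild type replicate 3 (limma, adjusted p = 0.418, interval -0.51 to 0.11) and 0.16 with all 6 arrays (adjusted p = 0.79, interval -0.57 to 0.88), so the sign turned with that array. Intensity of sig2B was 331.4, 356.8 and 320.7 in DpDf and 338.2, 300.9 and 324.4 in wild type. These values lie near the 40th percentile of the arrays, 310.8 to 320, which was the bound taken for background, and the groups overlapped. The log2 difference of sig2B was 0.07 in both settings (limma, adjusted p = 0.651 without wild type replicate 3 and 0.778 with all 6 arrays), with an interval of -0.13 to 0.28 without that array.

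The fourth paralog, sig3, was not above this bound on any array. Its intensity was 172.3, 210.5 and 216.4 in DpDf and 203.9, 227.1 and 310.4 in wild type. The groups overlapped, and no fold is given because neither group was above background. The array that stood apart gave the highest value. Of the 5 family members, 4 passed the filter on low values and 1, sig3, did not.

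**Figure D2:**
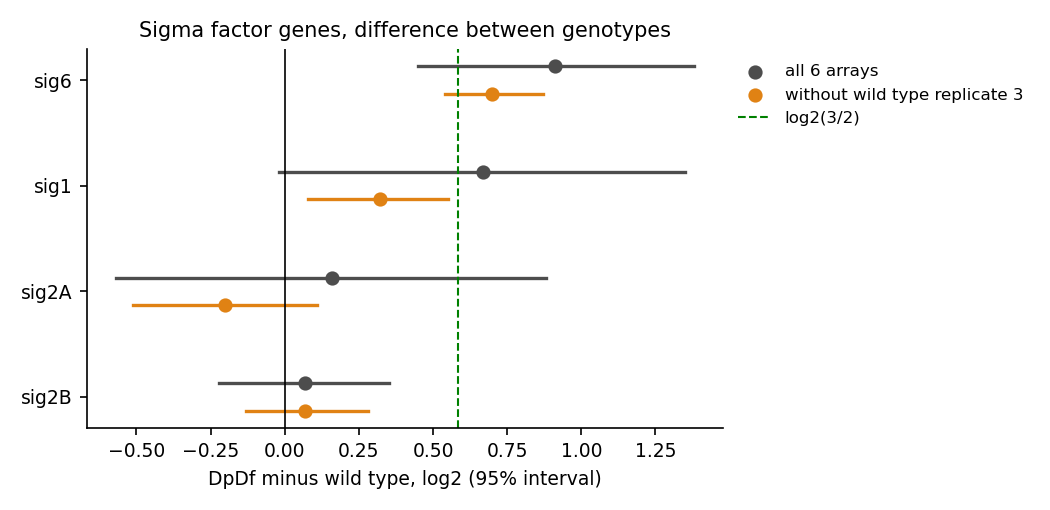
Difference in log2(intensity + 1), DpDf minus wild type, for the 4 sigma factor genes above background, with the 95% interval of the limma fit, for all 6 arrays (grey) and without wild type replicate 3 (orange). The dashed line marks 0.585, the log2 of 3 copies over 2. The interval of sig6 lies above 0 and includes this line in both settings (0.54 to 0.87 without that array). That of sig1 lies above 0 and below the line without the array (0.08 to 0.55). With all 6 arrays the sig1 interval (-0.02 to 1.35) includes both 0 and the line.

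Within an array, sig6 can be set against its paralogs, which removes what the probe sets of an array share. The level of sig6 minus that of another probe set has no meaning by itself, and only its change between genotypes is read. Minus the mean of the 4 paralogs, sig6 was 1.22, 1.18 and 1.25 on the log2 scale in DpDf replicates 1 to 3. In wild type replicates 1 to 3 the same quantity was 0.52, 0.55 and 0.28. DpDf thus lay 0.76 higher than wild type, and 0.68 higher without wild type replicate 3. With sig3 left out, as it was below background, the values were 0.80, 0.82 and 0.93 in DpDf and 0.15, 0.27 and 0.27 in wild type. On this scale wild type replicate 3 lay level with the other wild-type arrays. Against single paralogs it did not, and lay higher than those arrays for sig1 and sig2A and lower for sig2B. Relative to the mean without sig3, the genotypes differed by 0.62 with all 6 arrays and by 0.64 without wild type replicate 3.

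The difference between sig6 and a single paralog was computed for the 4 paralogs in turn, and no p could fall below 0.1. Relative to sig2A, sig6 was at 0.19, -0.05 and 0.19 in DpDf and at -0.92, -0.66 and -0.36 in wild type. The genotypes differed by 0.76, and by 0.90 without wild type replicate 3. Relative to sig2B it was at 1.55, 1.5 and 1.64 in DpDf and at 0.88, 0.99 and 0.27 in wild type, which differ by 0.85, and by 0.63 without that array. For both paralogs every DpDf array lay above every wild-type array (exact permutation test, two-sided, p = 0.1, and no lower p is possible with 3 arrays a group). The share of other probe sets that separate in this way from these paralogs is not given here. No value is printed against sig3 alone, which was below background. Relative to sig1 the DpDf values were 0.66, 1.00 and 0.95 and the wild-type values 0.50, 0.47 and 0.89, which overlap. The genotypes differed there by 0.25 (exact permutation test, two-sided, p = 0.2), and by 0.38 without wild type replicate 3, when the groups did not overlap (exact p = 0.2, below which 3 against 2 arrays cannot go). That sig6 differed more than sig1 was therefore not shown.

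**Figure D3:**
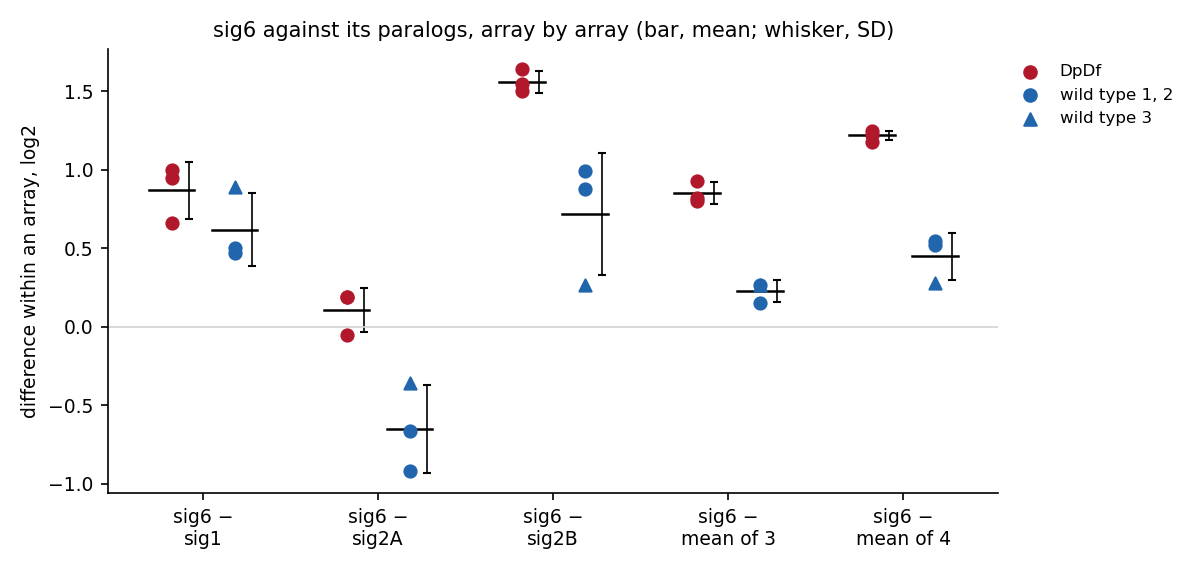
Log2 level of sig6 minus that of sig1, sig2A, sig2B, the mean of the 3 paralogs above background and the mean of all 4, on each array, with the group mean as a bar and the SD as a whisker (n = 3 each). Against the mean of 3, DpDf arrays lie at 0.80 to 0.93 and wild-type arrays at 0.15 to 0.27, whereas against sig1 wild type replicate 3 (0.89) lies among the DpDf arrays.

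To set sig6 beside its copy number, the median of 744 placed genes outside the arm was subtracted on each array. On this scale sig6 lay at -0.72, -0.69 and -0.64 in DpDf and at -1.36, -1.39 and -1.60 in wild type. The difference was 0.77 with all 6 arrays (limma, 95% interval 0.53 to 1.01, adjusted p = 0.066) and 0.69 without wild type replicate 3 (interval 0.53 to 0.86, adjusted p = 0.0151). Both intervals include 0.585, the log2 of 3 copies over 2. All DpDf arrays lay above all wild-type arrays (exact permutation test, two-sided, p = 0.1, with no lower p possible). Before the subtraction sig6 already separated in this way, as did 23.2% of all probe sets tested with all 6 arrays. The share on the subtracted scale is not given here.

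Among the short arm genes, most of which lie in the segment with the third copy, sig6 stood near the top. It ranked 2 of 46 by the log2 difference in both settings, a description with no test. With all 6 arrays pdi4, which encodes a protein disulfide isomerase, ranked just above it at 0.96 and tip3a, a vacuolar membrane aquaporin gene, just below at 0.90. Without wild type replicate 3, tip3a ranked just above at 0.89 and the ribosomal protein gene RPL19 just below at 0.62. For the other 45 arm genes the median difference was 0.56 with all 6 arrays and 0.39 without that array. Of these 45, 0 passed the test (limma) with all 6 arrays and 17 did without wild type replicate 3. In the latter setting 9 of the 744 placed genes outside the arm passed, and 3.33% of all probe sets tested. Minus the median of the other arm genes, sig6 lay at -1.26, -1.24 and -1.25 in DpDf and at -1.43, -1.58 and -1.77 in wild type. The genotypes differed by 0.34 on this scale, and by 0.25 without wild type replicate 3. Of the 744 placed genes outside the arm, 1 differed upward by more than sig6 with all 6 arrays and 3 did without that array.

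No named and measured gene lies outward of sig6 on the arm, so its nearest neighbours lie on the inner side only. Snf-4 like, named for the SNF4 subunit of a protein kinase, read 505.3, 629.4 and 564.9 in DpDf and 401.5, 408.4 and 400.8 in wild type. The gene der2, of the family that acts in endoplasmic reticulum quality control, read 1535, 1694 and 1750 against 1265, 1232 and 760.6. IDP1619, for which no role is given here, read 3357, 3581 and 3273 against 3128, 2660 and 1476. In all 3 the groups did not overlap and DpDf was the higher, as for 23.2% of all probe sets tested with all 6 arrays. Wild type replicate 3 was the lowest array for each of these genes. Without it their log2 differences were 0.48, 0.41 and 0.24, and none passed (limma, adjusted p = 0.061 for Snf-4 like, 0.0518 for der2 and 0.223 for IDP1619). With all 6 arrays they were 0.48, 0.65 and 0.56.

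**Figure D4:**
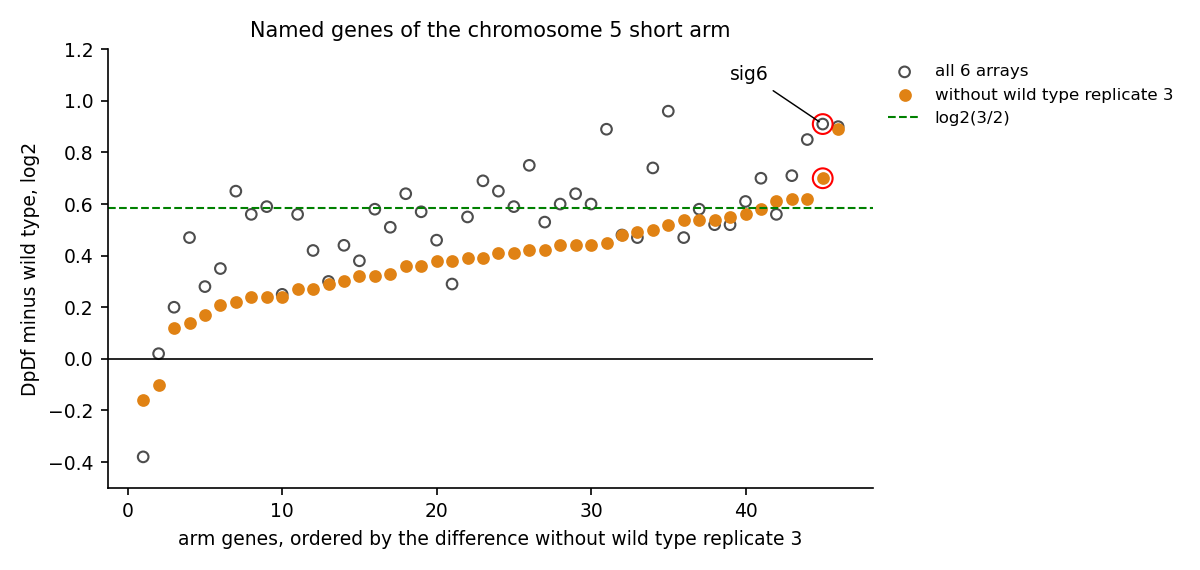
Difference in log2(intensity + 1), DpDf minus wild type, for the 46 named and measured genes of the chromosome 5 short arm, ordered by the value without wild type replicate 3 (filled), with the value from all 6 arrays (open). The dashed line marks 0.585, the log2 of 3 copies over 2. The red rings mark sig6, at 0.70 and 0.91.

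Genes that varied most like sig6 across the arrays were sought among 819 other named genes, by Pearson correlation of log2 levels less each array's median over the 6 arrays. The 5 most alike were RPL19 (r = 0.99), the squalene synthase gene sqs1 (r = 0.989), crd101 (r = 0.986), LOC542721 (r = 0.982) and ohp2, which encodes a partner of the seed transcription factor opaque2 (r = 0.979). All 5 lie on the chromosome 5 short arm, as do 13 of the 20 most alike, against 45 of the 819 genes compared. Wild type replicate 3 was the lowest array for each of the 5, and without it r was 0.983 to 0.994. The arrays compared share the genotype difference, and no test was made of r. RPL19 read 7346, 6940 and 7179 in DpDf against 4782, 4539 and 2882 in wild type, a log2 difference of 0.62 without wild type replicate 3 (limma, adjusted p = 0.0155). Among the paralogs, sig1 came at rank 44 (r = 0.821), sig2A at rank 308 (r = 0.101) and sig2B at rank 516 (r = -0.479). Without wild type replicate 3 their r was 0.796, -0.604 and 0.31, so the sign for sig2A and sig2B turned with that array.

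Nuclear genes for other plastid functions showed no change that passed the test. In 7 lists, 36 genes with 40 probe sets were found, and 29 genes with 32 probe sets passed the filter. Of these 32 probe sets 0 were called by limma in either setting. Among all probe sets tested, 3.33% were called in either direction without wild type replicate 3. At an unadjusted p under 0.05, 2 of the 32 differed with all 6 arrays, and 3 when wild type replicate 3 was left out, against 9.76% and 20.3% of all probe sets. Their median difference was 0.21 with all 6 arrays and 0.03 without that array, close to the 0.18 and 0.02 of all probe sets.

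Plastid transcription was represented by 2 further genes, rpot1 and rpoT2, which encode phage-type RNA polymerases of organelles, the other kind of polymerase besides the one that sigma factors serve. Intensity of rpot1 was 654.1, 660.8 and 532.9 in DpDf and 640.2, 564.8 and 232 in wild type. Intensity of rpoT2 was 566.9, 604.4 and 525.5 against 536.9, 476.2 and 377.1. Both overlapped between groups, and both were lowest in wild type replicate 3. Without it the log2 differences were 0.03 (limma, adjusted p = 0.906) and 0.16 (adjusted p = 0.371), and with all 6 arrays 0.48 and 0.30.

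Plastid RNA processing and translation held 8 genes, of which 4 passed the filter. The gene ij1 (iojap), needed for normal plastid ribosomes, read 507.5, 561.4 and 512.5 in DpDf and 665.5, 613.5 and 591.8 in wild type. DpDf lay lower without overlap, which held for 3.61% of all probe sets with all 6 arrays, and for 17.5% once wild type replicate 3 was left out. Its log2 difference was -0.28 without wild type replicate 3 (limma, adjusted p = 0.134) and -0.24 with all 6 arrays, so its sign did not depend on that array. The splicing factor genes rnc1, caf2 and CAF1 lay at -0.28, 0.14 and -0.11 without that array and at 0.28, 0.28 and 0.53 with it (limma, adjusted p-values from 0.301 to 0.749). The genes crs1, CRS2, crp1 and tha8, which also act on plastid transcripts, lay below the 40th percentile on all 6 arrays.

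Apart from sig6, 2 listed genes lie on the short arm, and they had the largest upward differences among the listed genes without wild type replicate 3. The gene tha9, of the thylakoid Tat protein transport family, read 1502, 1154 and 1268 in DpDf and 1031, 919.9 and 487.5 in wild type. The gene psad1, for a stromal subunit of photosystem I, read 5277, 5002 and 4902 against 4121, 3997 and 2337. For both genes the groups did not overlap and DpDf was the higher, as for 23.2% of all probe sets tested with all 6 arrays. The log2 differences were 0.42 ± 0.12 for tha9 (SE, limma, adjusted p = 0.132) and 0.32 ± 0.07 for psad1 (SE, limma, adjusted p = 0.0724) without wild type replicate 3, and 0.75 and 0.58 with all 6 arrays.

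Over the 30 probe sets of listed genes outside the arm the median was 0.03 without wild type replicate 3, in a range of -0.29 to 0.21. The thylakoid transport genes outside the arm were tha4 (0.07), csy1 (0.06) and hcf106 (-0.06), with Hcf106C below the filter. Listed with them was toc34 (-0.05), which encodes an import receptor of the outer chloroplast envelope. In light harvesting, lhcb5 lay at 0.16, the PSII protein gene psbs1 at 0.15 and psbq1, for a subunit of the oxygen-evolving complex, at 0.12. The photosystem I subunit genes psan1 and psah1 lay at 0.05 and -0.05. The same list held the Rubisco small subunit gene ssu1 (0.03) and its activase gene rca1 (0.02), which encode no light-harvesting or photosystem subunit. The 4 probe sets of lhcb6, an antenna protein gene, disagreed and lay at 0.14, 0.08, -0.26 and -0.29. Chlorophyll synthesis held oy1, a magnesium chelatase subunit gene (-0.12), and les22, for uroporphyrinogen decarboxylase (-0.13). Listed with them was elm1 (0.04), whose phytochromobilin synthase makes the chromophore of phytochrome and not chlorophyll. Carotenoid synthesis held crtRB1, a carotene hydroxylase gene (0.21), the desaturase genes pds1 (0.02) and vp9 (-0.02), and dxs1, of the upstream plastid isoprenoid pathway (-0.06), while psy2 was below the filter. Listed with them were the carotenoid cleavage genes wc1 (0.05) and vp14, the latter below the filter. The regulator of chloroplast development glk1 lay at 0.13. None of these passed in either setting (limma, adjusted p from 0.255 to 0.905 without that array). No named probe set matched the list of plastid-encoded genes, so transcripts made by the polymerase that sigma factors serve were not analysed here.

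**Figure D5:**
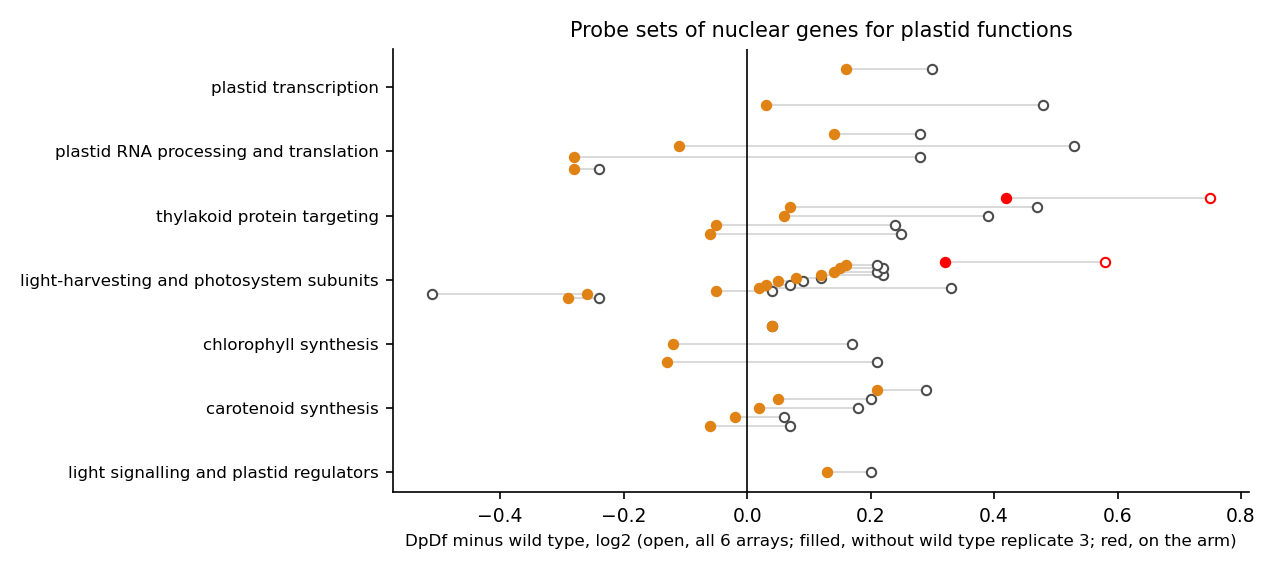
Difference in log2(intensity + 1), DpDf minus wild type, for 32 probe sets of nuclear genes in 7 lists of plastid functions, with all 6 arrays (open) and without wild type replicate 3 (filled), joined by a line. The 2 red probe sets belong to genes on the short arm, tha9 (0.42 without that array) and psad1 (0.32). The other filled points lie between -0.29 and 0.21. Lists are drawn under their working names, although toc34, elm1, wc1, ssu1 and rca1 act outside the process that their list is named for.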

How the data were processed

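RNA of 6 pools was measured, each on 1 array. The authors deposited 1 intensity per probe set for every array, on a linear scale as its values show. The submitters' processing notes name GCOS 1.2 and GCRMA without their roles, and background and scaling steps are not given here. Arrays have no read depth, and their number limits the precision. After leaving out 113 control probe sets, log2(intensity + 1) was taken, and the filter on low values required the array's own 40th percentile on 3 or more arrays. DpDf and wild type were fitted in limma 3.58.1 under R 4.3.3 (lmFit, eBayes, no block), p-values were adjusted by Benjamini-Hochberg across the 10661 probe sets that passed, and 0.05 was the threshold. The fits were also run on simulated data with noise drawn independently for each probe set and array. Those data hold no array-wide shift like that of wild type replicate 3, so they do not test the fits against it. For single values per array an exact permutation test, two-sided, was used.

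Gene symbols came from the platform table, and RefSeq synonyms through gene identifiers, of which 1060 of 1108 matched. The short arm was taken as the first 40% of chromosome 5, with the brightest probe set standing for each gene. Each replicate number marks 1 planting that gave both pools, per the labels, so the numbers pair the pools. The main fit and the permutation tests did not use this pairing, and the lowest possible p-values given are those for unpaired arrays. Deviations from the group mean correlated within pairs at 0.0757, -0.164 and 0.195. The members, lists and rules were chosen with earlier results of these data known. Named genes were all sigma factor genes, up to 4 members a list by smallest p, the nearest arm genes, the neighbours in rank and the 5 most alike. Other list members are named to account for them. Symbols shared with another gene (ohp1, ohp2, lpa1, por1, por2, glu1, atpb and 1 gene under pdk1) were taken out of the lists by identity.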

Additional observations from a re-analysis of the deposited data

How the results depend on the processing

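Over 21 alternatives to the comparison with all 6 arrays, the sig6 difference was above 0 in all 21, from 0.67 to 1.04. Leaving out arrays could not turn this sign, because the groups do not overlap. The choice of filter, of variance model and of block does not change the difference on the same arrays. The sig6 difference passed the test in 5 of the 21 (limma, adjusted p 0.00656 to 0.835 over the 21). It passed only in settings without wild type replicate 3: alone (0.70), with no filter (0.70), with quantile normalization (0.67), and with DpDf replicate 1 (0.72) or DpDf replicate 3 (0.70) also left out. The settings that leave out that array together with another choice were added after the data were seen, and where 1 wild-type array remains it is assumed to vary like the DpDf arrays. Leaving out single arrays gave 0.70 to 1.04 for sig6, and 2 to 355 probe sets called against 3 with all arrays. Without wild type replicate 3, 364 were called with no filter and 306 with quantile normalization. The number was 753 without DpDf replicate 1 as well, and 160 without DpDf replicate 3 as well, but 3 without DpDf replicate 2, wild type replicate 1 or wild type replicate 2 as well, and 4 with the block and no replicate 3 of either group. The cause was not tested. The replicate block changed no call with all 6 arrays (sig6 at 0.91, adjusted p = 0.297, and 3 probe sets called). Relative to its paralogs sig6 was 0.67 to 0.81 higher over 11 alternatives, and 0.62 with only those that passed the filter. Relative to other arm genes it was 0.25 to 0.42 and, relative to genes outside the arm, 0.67 to 0.85. Equal array medians and the block with all 6 arrays are counted among these alternatives, although they cannot change a difference within arrays. The difference of sig1 kept its sign over the alternatives (0.23 to 0.85), which leaving out arrays could not turn because its groups do not overlap. Leaving out single arrays gave up to 0.41 for sig2A and, with wild type replicate 3 and a second array out, up to 0.16 for sig2B. That of sig2A turned below 0 in each setting without wild type replicate 3: alone (-0.20), with no filter (-0.20), with quantile normalization (-0.24), with the replicate block and no replicate 3 of either group (-0.16), and with DpDf replicate 1, 2 or 3 (-0.14, -0.29 and -0.16) or wild type replicate 1 or 2 (-0.04 and -0.36) also left out. That of sig2B turned with array medians set equal (-0.03) and without wild type replicates 2 and 3 (-0.01). No listed plastid gene was called in any alternative. Most of these alternatives called few probe sets of the whole array, so the lack of a call there says little about these genes.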
